A study of Mus musculus with 2 samples.

Results

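A set of 10 genes of bacterial and nucleic acid sensing were followed in total RNA of mouse liver: the Toll-like receptor genes Tlr2, Tlr3, Tlr4, Tlr5, Tlr7 and Tlr9, the lipopolysaccharide (LPS) accessory genes Lbp, Cd14 and Ly96, and the adaptor gene Myd88. They were taken by gene symbol, and all 10 were found among the 43346 mouse genes of the deposited tables. The tissue was liver of adult C57BL/6J mice at 8 weeks of age, with no treatment or engineered allele named, and RNA longer than 200 nucleotides was sequenced in 2 libraries, numbered as biological replicates 1 and 2. Both form 1 group, so no comparison between conditions exists and no p-value is given. The labels give each library its own biosample but the same donor identifier, and the sex was not collected, so the spread between the libraries may be technical.

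Toll-like receptors are membrane proteins that recognise conserved microbial molecules. LPS from the outer membrane of Gram-negative bacteria is extracted by LPS-binding protein (the product of Lbp), passed to CD14, and presented to the complex of TLR4 with MD-2 (the product of Ly96). Most of these receptors signal through MyD88 to NF-kB and the MAP kinases, whereas TLR3 uses TRIF (the product of Ticam1) and TLR4 uses both adaptors. The liver receives gut-derived LPS through the portal vein. Hepatocytes are a main source of circulating LPS-binding protein, and Kupffer cells, the resident macrophages, carry much of the receptor machinery.

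The tables held 83816487 expected counts from mouse genes in replicate 1 and 71068191 in replicate 2. The small cytoplasmic RNA genes Rn7s1 and Rn7s2 held 70.5% and 65.8% of all TPM (counts divided by transcript length and scaled to a fixed sum in each library), and protein-coding genes held 12.2% and 16.4%. TPM values here leave out spike-ins. Genes were tested for a difference where their counts averaged at least 10. Of these 15492 genes, 87.8% were higher in the replicate 2 library on the deposited TPM scale, which includes spike-ins. The median log2 ratio on that scale was 0.48. Levels are therefore compared between genes within each library. An SD over the 2 TPM values of a gene includes this shift between the libraries. Differences between the libraries are given on counts scaled by the trimmed mean of M-values (TMM), on which the median of all tested genes was 0.0032. All 7 hepatocyte markers (Alb, Apoa1, Ttr, Serpina1a, Cps1, Hnf4a, Tat) were at 1 TPM or more in both libraries.

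Lbp was by far the most abundant of the 10 genes, at 10.1 ± 3.96 TPM (SD, n = 2). The TLR4 partner Ly96 followed at 1.58 ± 0.553 TPM, Tlr4 itself stood at 0.703 ± 0.198 TPM, and the LPS co-receptor Cd14 at 0.285 ± 0.0634 TPM. Tlr9, the receptor for unmethylated CpG DNA, was lowest, with 24 counts in each library. Only Lbp and Ly96 reached 1 TPM in both libraries, which is 2 of 10 genes against 31.0% of the 21474 protein-coding genes. The count depended on the limit. At 0.1 TPM 9 of the 10 passed (52.7% of protein-coding genes), at 10 counts all 10 did (61.1%), at 1 FPKM 5 did (45.6%), and at 1 TPM rescaled over protein-coding genes 9 did (51.2%).

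**Figure D1:**
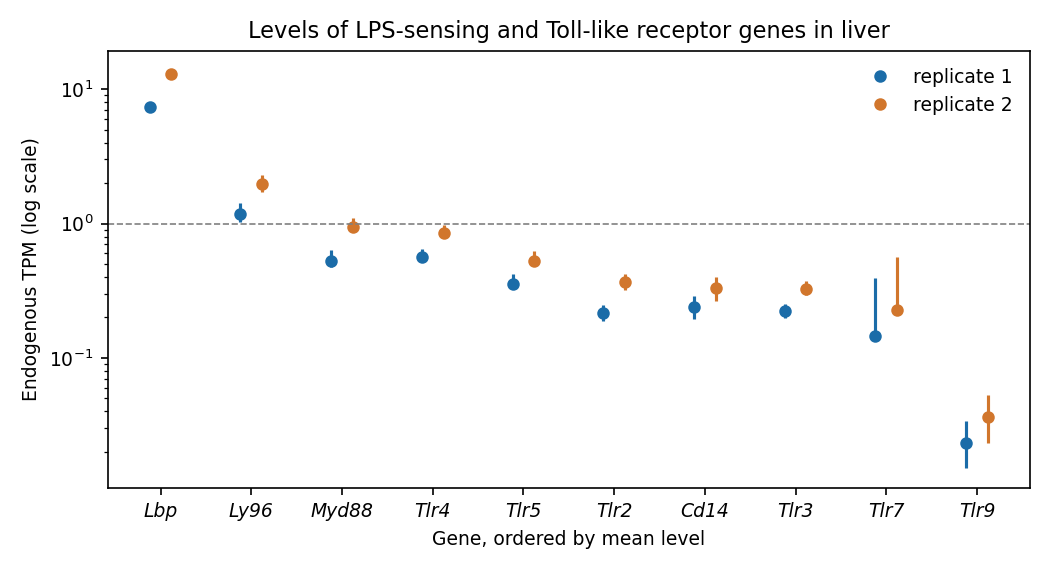
Level of each gene in the 2 libraries, as TPM without spike-ins on a log axis; points are single libraries, bars are the deposited intervals of the TPM estimate, and the dashed line marks 1 TPM. Lbp lies highest at 7.31 and 12.9 TPM and Tlr9 lowest at 0.0233 and 0.0364 TPM. Replicate 2 lies above replicate 1 for all 10 genes, as it did for 87.8% of all genes tested on the deposited TPM scale.

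Lbp (ENSMUSG00000016024.5, mm10 chr2:158306493-158332852, plus strand) had 3548 counts in replicate 1 and 4015 in replicate 2, or 7.31 and 12.9 TPM. It stood above 91.9% and 93.2% of protein-coding genes. Its level was 30.4 and 39.1 times that of Cd14, which receives LPS from its product, and 313 and 354 times that of Tlr9 within the respective libraries.

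Ly96 (ENSMUSG00000025779.6, chr1:16688051-16709611, plus strand) encodes MD-2, which binds the lipid A part of LPS. It had 158 and 167 counts, or 1.19 and 1.97 TPM. Per length, it exceeded Tlr4 by 2.11 times in replicate 1 and 2.33 times in replicate 2. Tlr4 (ENSMUSG00000039005.9, chr4:66827584-66930284, plus strand) had more counts, 674 and 658, on a longer transcript, and 0.563 and 0.844 TPM. Cd14 (ENSMUSG00000051439.6, chr18:36725067-36726798, minus strand) had 103 and 91 counts, or 0.240 and 0.330 TPM. The LPS receptor genes thus held the same order, Ly96 above Tlr4 above Cd14, in both libraries, with no overlap between the libraries of neighbouring genes in this chain.

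Tlr5 and Tlr2 encode the other receptors of the cell surface in this set. Tlr5 (ENSMUSG00000079164.4, chr1:182954788-182976044, plus strand), the flagellin receptor, had 322 and 300 counts, or 0.352 and 0.524 TPM. Tlr2 (ENSMUSG00000027995.10, chr3:83836272-83841767, minus strand), which pairs with TLR1 or TLR6 to bind bacterial lipopeptides, had 192 and 207 counts, or 0.217 and 0.366 TPM. Tlr5 exceeded Tlr2 by 1.62 and 1.43 times within the libraries, and the deposited intervals of the pair were apart in each library, but the ranges over libraries overlapped. Tlr4 exceeded Tlr2 by 2.59 and 2.31 times.

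Tlr3, Tlr7 and Tlr9 encode endosomal receptors of nucleic acids. Tlr3 (ENSMUSG00000031639.7, chr8:45395665-45411080, minus strand), which binds double-stranded RNA, had 289 and 272 counts, or 0.223 and 0.328 TPM. In the annotation, 381 of the 5207 exon bases of Tlr3 also lie in exons of Gm45542, for which no counts were available. The part of these bases in the level of Tlr3 was not tested. Tlr7 (ENSMUSG00000044583.9, chrX:167304929-167330558, minus strand), which binds single-stranded RNA, had 144 and 164 counts, or 0.145 and 0.228 TPM. Tlr9 (ENSMUSG00000045322.10, chr9:106222598-106226883, plus strand) had 24 counts in each library, or 0.0233 and 0.0364 TPM. Tlr4 was 24.2 and 23.2 times as high as Tlr9 within the libraries. Summed, Tlr2, Tlr4 and Tlr5 held 1.13 and 1.73 TPM, against 0.391 and 0.592 TPM for Tlr3, Tlr7 and Tlr9.

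Tlr7 had the widest deposited interval of the 10 genes relative to its level. It ran from 0.142 to 0.394 TPM in replicate 1 and from 0.232 to 0.559 TPM in replicate 2, so the point estimate lay near its lower limit in replicate 1 and below it, at 0.228 TPM, in replicate 2. The posterior mean estimates were 0.251 and 0.372 TPM, which placed Tlr7 above Tlr2 (0.221 and 0.362), Cd14 (0.241 and 0.331) and Tlr3 (0.221 and 0.331) in both libraries. A transcript without any assigned count, Tlr7-206, received 25.2% and 22.2% of the gene in the posterior mean estimates. Its count was 0 with a posterior SD of 0.0 in both libraries, and its effective length was 50.4 and 60.1 nucleotides. The higher place of Tlr7 by posterior means thus rests in part on a transcript to which no reads were assigned.

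Myd88 (ENSMUSG00000032508.8, chr9:119335934-119341411, minus strand), the shared adaptor, had 296 and 345 counts, or 0.526 and 0.947 TPM. Its level could not be placed above or below that of Tlr4: it was 0.934 times Tlr4 in replicate 1 and 1.12 times in replicate 2. In the annotation, 290 of the 2576 exon bases of Myd88 also lie in exons of Acaa1a, a peroxisomal thiolase gene on the opposite strand. Acaa1a had 9530.31 and 8043.67 counts, 32.2 and 23.3 times those of Myd88. Whether strand was used in the counting is unknown here. The deposited counts of Myd88 were whole, with a posterior SD of 0.0 in both libraries. Tlr1 and Tlr6, which had fractional counts, each had a posterior SD of 0.47 counts. The deposited estimates thus record no uncertainty in how reads were assigned to Myd88. The part of the shared bases in the level of Myd88 was not tested.

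By mean TPM the order was Lbp, Ly96, Myd88, Tlr4, Tlr5, Tlr2, Cd14, Tlr3, Tlr7, Tlr9, with Tlr7 above Tlr2 if posterior means were used. Of the 9 neighbouring pairs in it, the libraries did not overlap for Lbp and Ly96, Ly96 and Myd88, Tlr4 and Tlr5, or Tlr7 and Tlr9. Overlap was found for Myd88 and Tlr4, Tlr5 and Tlr2, Tlr2 and Cd14, Cd14 and Tlr3, and Tlr3 and Tlr7. These ranges also include the TPM shift between the libraries. Within each library, Tlr5 stayed above Tlr2 and Tlr3 above Tlr7. Cd14 was 1.08 times Tlr3 in replicate 1 and 1.01 times in replicate 2, where the pair was nearly level. Of the overlapping pairs, only Tlr5 and Tlr2 had deposited intervals apart. Tlr2 and Cd14 changed places between the libraries, with Tlr2 at 0.905 times Cd14 in replicate 1 and 1.11 times in replicate 2. In bulk tissue, fewer cells that make a transcript and less of it in each cell cannot be told apart.

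Transcript shares were led by the same transcript in both libraries for all 10 genes. Of 31 annotated transcripts, 23 had counts in either library, and Cd14, Tlr2 and Tlr9 have 1 transcript each. The leading transcript held 90% or more of its gene's TPM in both libraries for 6 genes. The exceptions were Lbp, Tlr5, Tlr7 and, by a narrow margin in replicate 2, Myd88 (92.6% and 89.7%). Its remaining 7.40% and 10.3% lay in a transcript with a retained intron, Myd88-203, at 27.6 and 44.4 counts.

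Lbp divided its reads most widely, over 5 transcripts. The full-length coding transcript Lbp-201 held 51.7% and 45.7% of the gene's TPM, and 77.6% and 68.6% of its counts. A 436-nucleotide coding model, Lbp-203, held 27.8% and 25.0% of TPM from only 4.06% and 3.79% of counts. Lbp-204, a transcript with a retained intron, held 9.44% of TPM in replicate 1 and 19.5% in replicate 2.

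Lbp-201 and Lbp-204 part at the end of exon 6 of the 15 exons of Lbp-201. They are shown because the libraries differed in the intron-retaining transcript and hardly in the full-length one. The lower-case letters are the last 30 bases of exon 6 (mm10 chr2:158317571-158317600, plus strand), common to both. The capitals are the next 30 bases of each transcript: exon 7 (chr2:158319672-158319701) in Lbp-201, and intron (chr2:158317601-158317630) in Lbp-204, which keeps 1013 intron bases.
Lbp-201: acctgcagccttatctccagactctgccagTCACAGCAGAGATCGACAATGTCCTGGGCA
Lbp-204: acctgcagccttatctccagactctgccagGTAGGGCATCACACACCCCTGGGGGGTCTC

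Lbp-204 had 328.59 counts (posterior SD 29.6) in replicate 1 and 771.78 (posterior SD 41.1) in replicate 2, a log2 ratio of 1.31. Lbp-201 had 2752.11 and 2755.86 counts, a log2 ratio of 0.09. Across retained-intron transcripts with a mean count of 100 or more, 3.97% of 1966 were over 2-fold higher in replicate 2, and their median log2 ratio was -0.017. Lbp-204 was singled out after its values were seen.

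**Figure D2:**
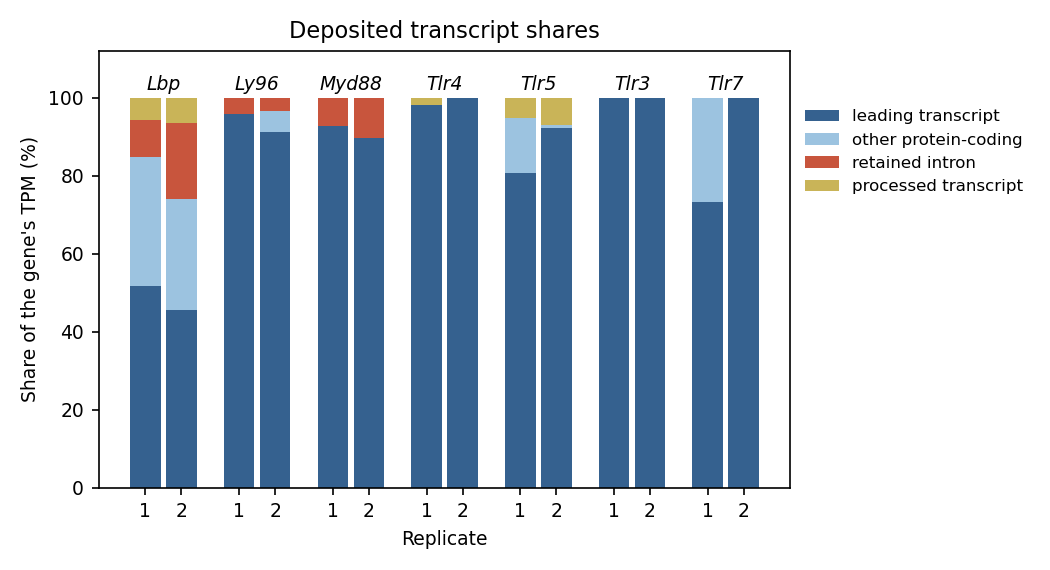
Deposited share of each transcript class in the TPM of its gene (percent, stacked bars, 1 bar per library) for the 7 genes with several transcripts. The retained-intron part of Lbp is 9.44% in replicate 1 and 19.5% in replicate 2, and Tlr7 goes from 73.3% to 100% in its leading transcript.

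Tlr5-201 held 80.6% and 92.3% of Tlr5. The difference was mainly in Tlr5-202, with 35.3 counts in replicate 1 and 2.96 in replicate 2, and in Tlr5-204, with 15.5 and 0. The posterior SD of these counts was 7.58 and 3.34 for Tlr5-202 and 14.3 and 9.19 for Tlr5-204. For Tlr5-201 it was 16.3 and 9.89. Tlr7-201 held 73.3% of Tlr7 in replicate 1 and 100% in replicate 2, but 39.9% and 54.7% in the posterior mean estimates. Of the rest in replicate 1, 12.7% of TPM came from 1 count on the 384-nucleotide Tlr7-204. A share 10 points or more apart between the libraries was found in 3 of the 7 genes with several transcripts (Lbp, Tlr5 and Tlr7), against 39.0% of 8090 protein-coding genes, a threshold chosen after the data were seen. These 7 genes, not all of them receptor genes, were thus near the background in this respect.

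None of the 10 genes was over 2-fold apart between the libraries, against 8.58% of the 15492 genes tested. By direction, 4.63% of genes were over 2-fold higher in replicate 2 and 3.95% in replicate 1. On the TMM scale, 8 of the 10 were higher in replicate 2 and their median log2 ratio was 0.12, where 50.3% of all genes were higher. With DESeq2 size factors 7 of the 10 were higher, and with total counts, spike-in totals or deposited TPM all 10 were, scalings that also raised the median of all genes to between 0.15 and 0.48. The middle quartiles of all genes ran from -0.25 to 0.29.

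The ratios ran from -0.09 in Cd14 to 0.31 in Myd88. The interval for counting error, an exact 95% binomial interval, lay above 0 for Lbp (0.20 to 0.33 around a log2 ratio of 0.27) and for Myd88 (0.08 to 0.54). It included 0 for the other 8 genes. Without Lbp-204, the log2 ratio of Lbp was 0.10 (counting interval 0.03 to 0.17), an alternative added after the data were seen. For Tlr9 the interval ran from -0.79 to 0.97, so a difference somewhat under 2-fold was not detectable at its depth. These intervals leave out any error beyond counting.

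**Figure D3:**
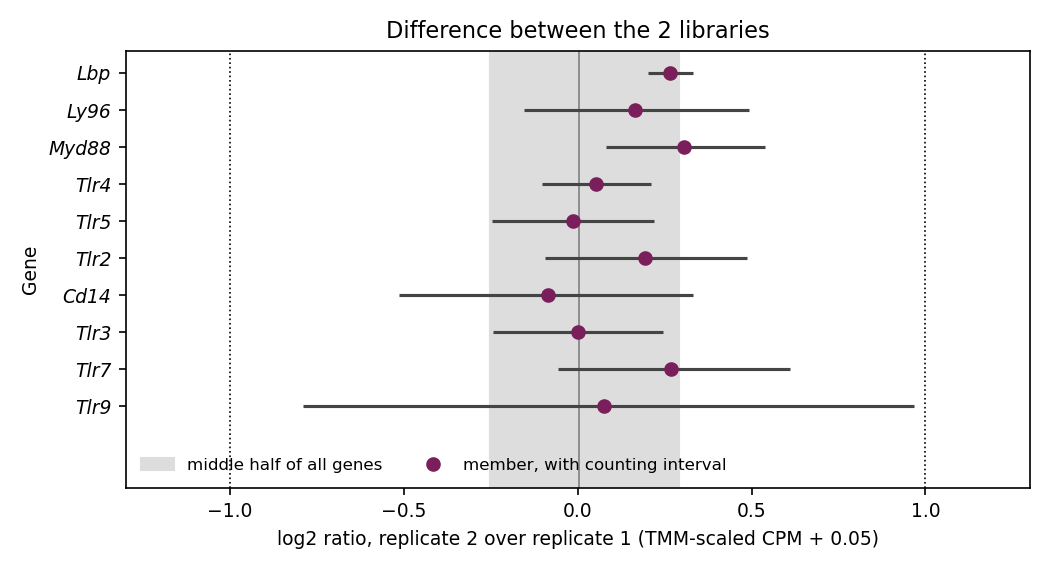
Log2 ratio of replicate 2 over replicate 1 for each gene (points, TMM-scaled CPM plus 0.05), with 95% counting intervals as bars; the grey band spans the quartiles of all 15492 genes, -0.25 to 0.29, and dotted lines mark 2-fold. All 10 points lie inside the dotted lines, and only the intervals of Lbp and Myd88 lie wholly above 0.

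Markers of the cells that could carry these transcripts were read beside them. Kupffer cell or macrophage markers summed to 76.2 and 89.6 TPM, led by Cd5l and Clec4f, with a median log2 ratio of -0.16 on the TMM scale and 7 of 11 lower in replicate 2. Sinusoidal endothelial markers summed to 30.5 and 41.4 TPM with a median of -0.01, with members from -0.48 in Clec4g to 1.26 in Lyve1 (468 and 1062 counts), and 1 of 6, Lyve1, was over 2-fold apart. Hepatocyte markers had a median of 0.29, with members from 0.05 to 0.72. Markers of B cells, which are known to carry Tlr9 and Tlr7, were low, at 0.770 and 3.10 TPM. All 6 were over 2-fold higher in replicate 2, beside 4.63% of all genes tested. The lowest log2 ratio was 1.0008 (counting interval 0.62 to 1.46), and 1 marker had only 6 and 19 counts. Tlr9 had 24 counts in both libraries, with a counting interval from -0.79 to 0.97. Of 6 neutrophil markers, Mpo and Ly6g had 0 counts in both libraries, which allows up to 3 counts each, whereas S100a9 had 27 and 34, S100a8 13 and 15, Retnlg 1 and 9, and Elane 1 and 4. Other lists held shifts the other way. Of 5 cholangiocyte markers, 1, Krt19, was over 2-fold lower in replicate 2 (149 and 63 counts, log2 ratio -1.11). Of the 4 plasmacytoid dendritic cell markers tested, 1, Klk1, was also lower (283 and 51 counts, log2 ratio -2.30). Over all genes tested, 3.95% were over 2-fold lower. The part of these cell types in the differences of the 10 genes was not tested.

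The 6 other Toll-like receptor genes were measured, and 0 of them reached 1 TPM in both libraries, beside 31.0% of protein-coding genes. Tlr12, a mouse receptor for a parasite profilin, had 495 and 375 counts and 0.578 ± 0.0683 TPM (SD, n = 2). Its level was 0.941 times that of Tlr4 in replicate 1 and 0.742 times in replicate 2. Tlr8, a close relative of Tlr7, had 274 and 246 counts and 0.444 ± 0.144 TPM, and exceeded Tlr7 by 2.36 and 2.39 times. Tlr1 and Tlr6 are similar in sequence and had fractional counts, 77.7 and 73.33 for Tlr1 and 35.3 and 64.67 for Tlr6, each with a posterior SD of 0.47 counts. All 12 Tlr genes together held 2.76 and 4.11 TPM, from 2779 and 2632 counts.

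Of 75 other genes of the pathway, 28 were at 1 TPM or more in both libraries, beside 31.0% of protein-coding genes. The same share is the background for the counts by role that follow. Of 7 partners and trafficking factors, 5 were at 1 TPM, and most of their summed TPM lay in a single gene. This was Hsp90b1, the endoplasmic reticulum chaperone needed to fold most Toll-like receptors, at 103.6 ± 18.5 TPM. Cd36, a scavenger receptor that assists TLR2, stood at 6.85 ± 0.705 TPM. Both also serve many proteins or ligands outside this pathway.

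Several signalling genes stood above the receptors. Among 11 adaptors and proximal kinases, 4 reached 1 TPM, led by the inhibitory adaptor Tollip (4.32 ± 1.81 TPM) and the kinase Irak1 (2.91 ± 1.49 TPM). Among 11 downstream kinases and their regulators 8 did, led by Chuk (14.8 ± 1.10 TPM) and Ikbkg (7.93 ± 3.35 TPM), which encode subunits of the IkB kinase complex. Of 8 transcription factors 4 did, with Irf3 at 6.98 ± 1.53 TPM and Irf7 at 3.55 ± 0.0140 TPM. Of 12 inhibitors 4 did, with Nfkbia, the gene of IkB-alpha, at 9.15 ± 3.14 TPM and the deubiquitinase gene Otulin at 3.76 ± 0.967 TPM. These SDs include the TPM shift between the libraries, so a small SD is not a small difference. On the TMM scale, the log2 ratio of Irf7 was -0.58 (1846 and 1161 counts) and that of Irf3 was -0.04.

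Genes that handle LPS or peptidoglycan outside the receptor included some near the level of Lbp. Pglyrp2, a secreted amidase of peptidoglycan made in liver, had 3891 and 6966 counts and 12.6 ± 8.41 TPM, and Scarb1, a lipoprotein receptor that also takes up LPS, stood at 11.9 ± 5.76 TPM. Bpi, which encodes a neutrophil LPS-binding protein related to LBP, had 0 counts in both libraries. None of 14 LPS-induced cytokine and enzyme genes reached 1 TPM in both libraries. Cxcl1, a neutrophil chemokine, led them with 177 and 183 counts (0.983 ± 0.320 TPM), followed by the interferon-induced Cxcl10 with 43 and 75 counts. Ifnb1 and Cxcl2 had 0 counts in both libraries, Tnf had 1 and 4, and Il6 had 0 and 4.

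Between the libraries, 3 of the 65 pathway genes tested were over 2-fold higher in replicate 2 and 0 were over 2-fold lower, beside backgrounds of 4.63% and 3.95%. They were Il10, an anti-inflammatory cytokine gene (11 and 59 counts), Ccl2, a monocyte chemokine gene (3 and 18), and Sarm1, which encodes a TIR-domain NADase (10 and 30). All 3 rest on few counts. The median log2 ratio of the 65 was 0.07, with 38 higher and 27 lower in replicate 2.

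**Figure D4:**
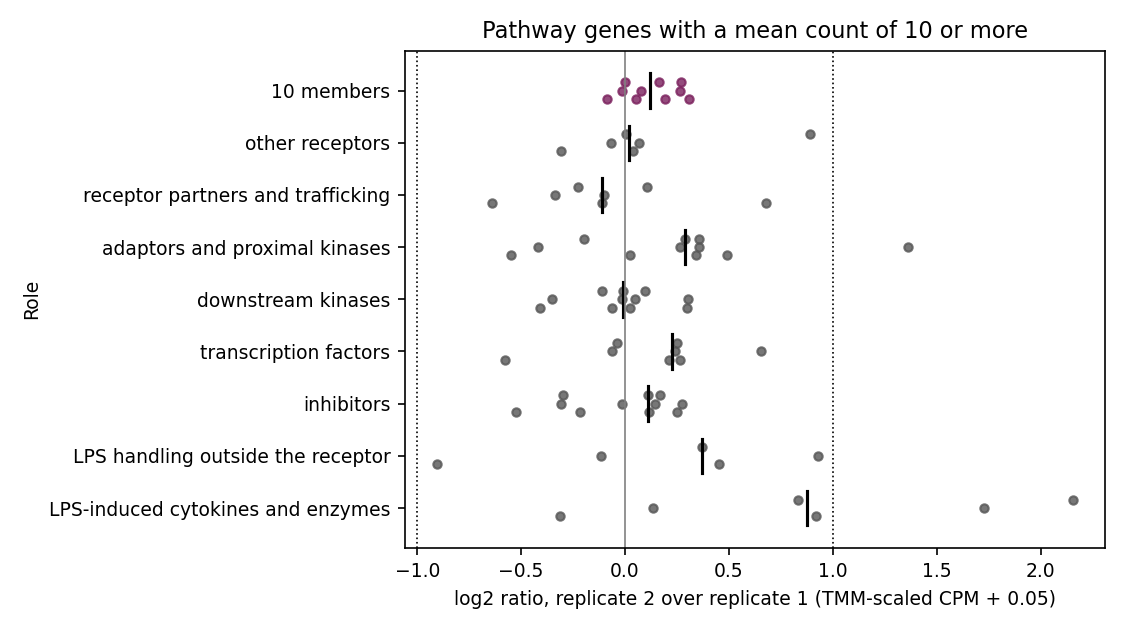
Log2 ratio of replicate 2 over replicate 1 (TMM-scaled CPM plus 0.05) for the 10 genes and for the 65 tested pathway genes by role; each point is 1 gene, short black lines are medians and dotted lines mark 2-fold. Il10, Ccl2 and Sarm1 lie beyond 2-fold, and the medians run from -0.11 for receptor partners to 0.88 for the 6 tested cytokine and enzyme genes.

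RefSeq promoter windows (GRCm38.p6, 250 bases before the start site searched on both strands) matched 5 of the genes by symbol: Tlr2, Tlr3, Tlr5, Tlr9 and Myd88. An NF-kB consensus was found in Tlr2 and Tlr3, against 7.25% of 32851 promoters. Myd88 held the STAT-type letters TTCNNNGAA (7.02% of promoters), the interferon response factor type GAAANNGAA (7.13%), which overlaps it, and TATAAA (12.4%) on both strands. Tlr3 held the C/EBP-type TTGCNNAA (9.56%). GAGGAAGT of the PU.1 type (2.44%) and the HNF1-type GTTAAT (6.43%) were in none of the 5, and the windows of Tlr5 and Tlr9 held none of the letters searched. The Tlr3 window starts within an annotated exon of that gene, so its matches do not lie before the first exon. A match is a description of the letters only.

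The Tlr2 and Myd88 windows are shown because NF-kB and interferon response factors are the end points of the pathway itself. From the first annotated exon base inside each window, the rest is left out. The Myd88 bases lie before the first exon of Myd88-201 and in an intron of Myd88-202, which starts farther upstream. Capitals mark the matches: the overlapping NF-kB consensus in Tlr2 (chr3:83841768-83841858, minus strand), and TATAAA and the overlapping STAT-type and interferon response factor type letters in Myd88 (chr9:119340042-119340268, minus strand).
Tlr2: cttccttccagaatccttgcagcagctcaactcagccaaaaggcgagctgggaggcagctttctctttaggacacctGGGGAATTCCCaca
Myd88: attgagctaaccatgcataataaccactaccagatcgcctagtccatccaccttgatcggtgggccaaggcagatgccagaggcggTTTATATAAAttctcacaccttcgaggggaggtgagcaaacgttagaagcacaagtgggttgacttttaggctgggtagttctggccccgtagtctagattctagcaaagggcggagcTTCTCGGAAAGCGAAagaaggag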

How the data were processed

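Per the notes deposited beside the tables, the authors used mm10 and GENCODE M4 for each library. The aligner and quantifier: not given in the sources used here. Deposited expected counts are estimated fragments per gene or transcript, unnormalised and not always whole. The deposited TPM values are scaled to length and to a sum that includes spike-ins, and the deposited FPKM values to length and depth. Deposited transcript shares are a percent of the gene's TPM. The deposited signal columns give the posterior SD of each count and the interval of each TPM. Symbols and coordinates came from GENCODE M21, which matched 42462 of 43346 genes.

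TPM was recomputed unrounded from count and effective length, without spike-ins; 99.9% of genes under 100 TPM came within 0.005 of the deposited value. Ratios used TMM factors (edgeR 4.0.16, R 4.3.3), a pseudocount of 0.05 CPM (counts scaled to library size; about 4 counts) and a mean count of 10 or more; Python 3.11.15 with pandas 2.3.3 and scipy 1.17.1 did the rest, including exact Clopper-Pearson intervals of 95%, which cover counting error only. The ratio script was tested on simulated data. With 1 group there is no test between conditions. DESeq2 1.42.0 size factors, totals, spike-ins, other pseudocounts, filters, detection limits and posterior mean TPM and transcript shares were alternatives.

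All 10 genes are named. Of 75 listed pathway genes, the 2 highest per role and those over 2-fold apart are named. Of each marker list, the highest and those at 0 counts are named. Lyve1, Krt19, Klk1 and the other neutrophil markers were named after their values were seen. The members and lists were chosen with earlier results of these data known. The highest marker was Alb for hepatocytes, Clec4g for endothelium and Ighm for B cells. Other lists, with their highest gene, were monocytes (Ly6c2; 0.421 and 0.513 TPM summed), neutrophils (S100a9; 0.525 and 1.07), stellate cells (Dcn; 33.9 and 50.8), cholangiocytes (Spp1; 5.05 and 5.16), plasmacytoid dendritic cells (76.2 and 92.4, nearly all from Bst2, which other cells also express), conventional dendritic cells (Zbtb46; 0.964 and 1.39) and T or NK cells (Cd3g; 0.433 and 0.654).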

Additional observations from a re-analysis of the deposited data

How the results depend on the processing

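The mean level of Tlr7 was 0.311 TPM with posterior means, 0.187 otherwise, and the mean share of Tlr7-201 was 47.3%, 86.6% otherwise. Detection depended on the limit: 2 of the 10 genes passed 1 TPM in both libraries, 9 passed 0.1 TPM, 10 passed 10 counts, 5 passed 1 FPKM, and 9 passed 1 TPM when TPM was rescaled over protein-coding genes; the count was 2 to 2 without either replicate. None of the 10 was over 2-fold apart under any scaling, pseudocount or filter run. The median log2 ratio of the 10 was 0.26 with total counts, 0.42 with spike-in totals and 0.53 with deposited TPM, and that of all genes moved to 0.15, 0.32 and 0.48, so all 10 ratios were above 0 under these 3 scalings and 7 with DESeq2 size factors. Pathway genes over 2-fold numbered 6 with total counts, 7 with spike-in totals, 7 with deposited TPM, 1 with a pseudocount of 0.5 CPM and 0 with a filter of 1 TPM. All genes over 2-fold numbered 427 with 0.5 CPM, 205 with the 1 TPM filter and 2383 with no filter. The 1 TPM filter left 2 of the 10 genes. No paired analysis was possible because both libraries belong to a single group. Depth limits Tlr9 most.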
